A study of Mus musculus with 12 samples.

Results

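Cdc42 knockout (KO) skin and wild-type (WT) skin were compared after both had received zinc oxide nanoparticles (ZnO NPs), across all expressed genes. The comparison used 6 of the 12 libraries in the series, namely the 3 libraries labelled KO+ZnO NPs and the 3 labelled WT+ZnO NPs. The KO mice lacked floxed Cdc42 where Cre was driven by the keratin 5 promoter, which restricts the deletion to keratinocytes, and the WT mice carried floxed alleles without Cre. All mice were C57BL/6 and 3 months old, their shaved dorsal skin received ZnO NPs in normal saline with hydroxypropyl methylcellulose for 14 days, and each group held 3 mice, sampled as whole skin. The other 6 libraries, 3 labelled WT and 3 labelled KO, came from control skin that received the saline and hydroxypropyl methylcellulose vehicle without ZnO NPs, and entered here through the shared estimate of the spread and as the reference for each gene. The question was which transcripts differ between skin with the epidermal deletion and skin without it under the same particle exposure.

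Cdc42 is a small GTPase that sets cell polarity and organises junctions between keratinocytes, and its loss from the epidermis leaves a leaky skin barrier. Zinc oxide particles are used in sunscreens and can release zinc ions. Full-thickness skin mixes epidermis, hair follicles, dermal fibroblasts, vessels, immune cells, fat and a thin muscle layer, so a transcript level in it depends on both cell composition and expression per cell. Fewer cells of a type and less RNA per cell cannot be told apart in these bulk libraries.

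Levels are given as CPM, a library's count relative to its total scaled by the trimmed mean of M-values (TMM). The 12 libraries held between 21076320 and 28867802 counts. The targeted gene did not follow the labels. Cdc42 was at 365, 453 and 314 CPM in KO+ZnO NPs and at 311, 350 and 317 CPM in WT+ZnO NPs, against 415 to 464 CPM in KO and 606 to 628 CPM in WT. The treated groups overlapped, with a log2 difference of 0.21 (SE 0.15, edgeR adjusted p = 0.401), while each of the 3 WT+ZnO NPs libraries was under the lowest KO library without ZnO NPs. Counts cover the whole gene, and cells without Cre keep it, so this level checks the labels only in part. The Y-linked transcripts summed to 191 to 236 CPM in the WT+ZnO NPs libraries and to 237 CPM in KO+ZnO NPs replicate 1, but to 0.0504 and 0 CPM in KO+ZnO NPs replicates 2 and 3, which held Xist at 460 and 850 CPM. The study's methods describe the knockout mice as female, and the Y-linked transcripts in KO+ZnO NPs replicate 1 and in KO replicate 1 go against that. Genotype and these sex-linked transcripts cannot be told apart for 2 of the 3 KO+ZnO NPs libraries. The 3 WT libraries held 0 CPM of Y-linked transcripts and Xist at 543.4 to 641.5 CPM, while Xist was at 0.36 to 0.475 CPM in WT+ZnO NPs. Between WT and WT+ZnO NPs, the particles and the sex-linked transcripts therefore cannot be told apart. Epidermal keratins were present in all 6 libraries, at a summed 6821 to 11240 CPM in WT+ZnO NPs and 11490 to 16670 CPM in KO+ZnO NPs. Genotypes below are those on the labels, and every direction is that of libraries labelled KO+ZnO NPs against libraries labelled WT+ZnO NPs.

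A gene was called at a Benjamini-Hochberg adjusted p below 0.05 over the 18822 genes tested, from the quasi-likelihood fit of edgeR. The test called 618 genes (3.28% of those tested), 400 higher in KO+ZnO NPs (2.13%) and 218 lower (1.16%). The median log2 fold change over all genes tested was 0.04. Called genes that rose did so by a median of 1.12 on the log2 scale and those that fell by a median of 0.85. The groups did not overlap for 617 of the 618 called genes, while 23.7% of all genes tested had groups that did not overlap and 24.8% had an unadjusted p below 0.05. The last genes inside the threshold were Grin3b (edgeR adjusted p = 0.0498) and Tprgl (0.05), and the first outside it were Dhx57 and Sh3glb1 (both 0.0501).

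Most of the called genes were set apart by the wild-type treated libraries. Of the 400 genes higher in KO+ZnO NPs, 342 (85.5%) had all 3 WT+ZnO NPs libraries below the other 9 libraries, against 7.79% of all genes tested. Of the 218 lower genes, 195 (89.4%) had all 3 WT+ZnO NPs libraries above the other 9, against 6.95% of all genes tested. The knockout treated libraries lay above the other 9 for 23 of the higher genes (5.75%, against 1.52% of all genes) and below the other 9 for 21 of the lower genes (9.63%, against 0.861%). The choice of called genes by the treated comparison raises all of these shares. Nearly all called genes had non-overlapping treated groups, and most of all genes tested did not. The shares over all genes are therefore not a like-for-like reference. The glucocorticoid-induced genes Fkbp5, Pdk4 and Ddit4 were among the 23, and Fgf7, Ccr10 and Nlrp1b were among the 21.

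**Figure D1:**
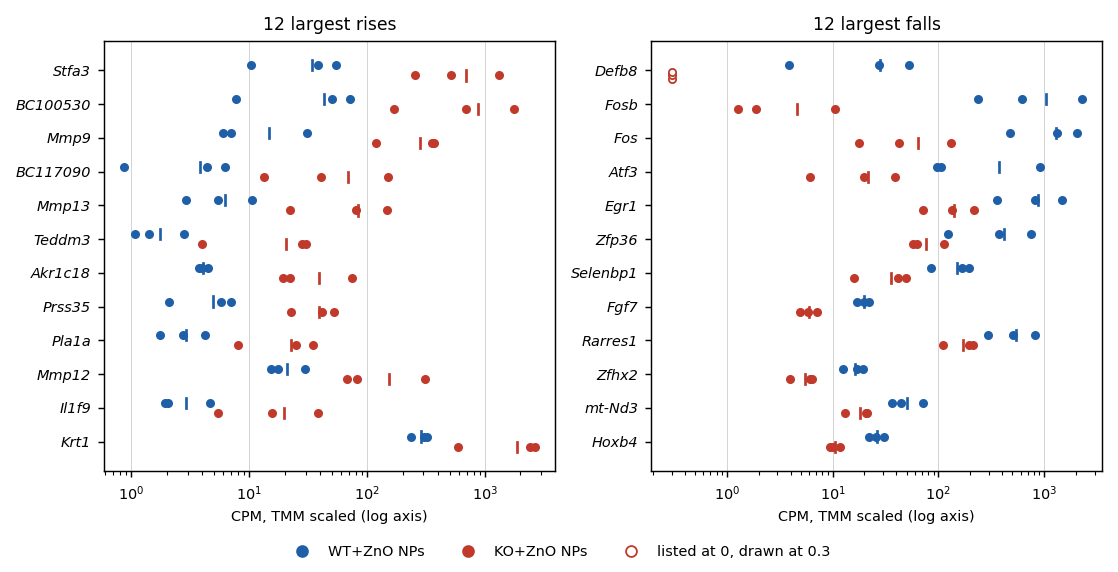
CPM, on a log axis, of the 12 called genes that rose most and the 12 that fell most under the naming rule. Each point is 1 library, short vertical lines are group means of 3 libraries, blue is WT+ZnO NPs and red is KO+ZnO NPs. Fos stood at 480 to 2051 CPM in WT+ZnO NPs and 17.9 to 132 CPM in KO+ZnO NPs, and Defb8 was listed at 0 in all 3 KO+ZnO NPs libraries.

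Immediate early genes, which encode transcription factors switched on within minutes of a stimulus without new protein synthesis, were the list with the lowest median. All 18 members tested had a lower level in KO+ZnO NPs, with a median log2 fold change of -1.66 against 0.04 over all genes. Of these, 4 were called, all lower (22.2%, against 1.16% of all genes tested). Their promoters carry cAMP response elements that stimulus-activated kinases act on through CREB, and the window before the RefSeq start is shown for Fos, Fosb and Atf3 because these 3 members fell most. Each is the 250 bases before the start on the gene's own strand in GRCm38.p6, 5′ to 3′, at chr12:85473640-85473889 (plus strand) for Fos, chr7:19310046-19310295 (minus strand) for Fosb and chr1:191183334-191183583 (minus strand) for Atf3. Capitals mark TGACG or its reverse complement CGTCA, the core of the cAMP response element.
Fos: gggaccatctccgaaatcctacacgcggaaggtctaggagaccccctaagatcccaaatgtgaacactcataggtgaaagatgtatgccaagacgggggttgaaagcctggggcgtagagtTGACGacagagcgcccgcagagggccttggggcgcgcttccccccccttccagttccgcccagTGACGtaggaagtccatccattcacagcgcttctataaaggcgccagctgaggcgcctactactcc
Fosb: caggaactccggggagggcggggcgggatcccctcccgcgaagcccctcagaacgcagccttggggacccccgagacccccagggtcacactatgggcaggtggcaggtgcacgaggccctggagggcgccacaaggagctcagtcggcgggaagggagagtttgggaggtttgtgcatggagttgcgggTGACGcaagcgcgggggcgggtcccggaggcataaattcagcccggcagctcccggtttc
Atf3: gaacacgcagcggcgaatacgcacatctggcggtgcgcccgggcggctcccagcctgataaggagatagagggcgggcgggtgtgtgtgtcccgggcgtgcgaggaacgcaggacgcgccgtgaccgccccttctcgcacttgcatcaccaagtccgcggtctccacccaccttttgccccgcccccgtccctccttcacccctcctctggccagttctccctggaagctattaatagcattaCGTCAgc
The core began 129 and 66 bases before the Fos start, 60 before the Fosb start and 7 before the Atf3 start. It stood in this window of 38.3% of the 162 called lower genes with a RefSeq window, 25.7% of the 288 called higher genes and 27.5% of the 12955 tested genes with a window. A match of these letters is a description of the window and not evidence of binding.

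Fos, which encodes a subunit of the AP-1 transcription factor, stood at 1312, 2051 and 480 CPM in WT+ZnO NPs and at 42.0, 132 and 17.9 CPM in KO+ZnO NPs. The groups did not overlap, and the other 6 libraries lay between 38.3 and 280 CPM. The log2 fold change was -4.33 (SE 0.94, edgeR adjusted p = 0.0406). Fosb, its close relative, stood at 616, 2273 and 236 CPM in WT+ZnO NPs against 1.88, 10.5 and 1.26 CPM in KO+ZnO NPs, a log2 fold change of -7.85 (SE 1.75, edgeR adjusted p = 0.0439). Replicate 2 was the highest of the WT+ZnO NPs libraries for both genes and also the highest of the KO+ZnO NPs libraries. Atf3, a stress-induced factor of the ATF family, was at 107, 908 and 96.7 CPM in WT+ZnO NPs and at 6.15, 38.5 and 19.9 CPM in KO+ZnO NPs (log2 fold change -4.11, SE 0.92, edgeR adjusted p = 0.0441). Without WT+ZnO NPs replicate 2 its log2 fold change was -2.24, and the lowest value with 1 library left out was -4.85. Egr1, a zinc finger factor of growth and wounding responses, was at 818, 1460 and 361 CPM against 134, 219 and 71.8 CPM, a log2 fold change of -2.64 (SE 0.62, edgeR adjusted p = 0.0486). Zfp36, which is outside the list, encodes an RNA-binding protein that shortens the life of cytokine mRNAs, and it was at 376, 750 and 122 CPM against 62.2, 112 and 56.9 CPM (log2 fold change -2.43, SE 0.58, edgeR adjusted p = 0.0497).

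Among the members that missed the threshold, Ier2 had a log2 difference of -1.78 (edgeR adjusted p = 0.0521), Jun one of -1.87 (0.079) and Junb one of -1.54 (0.1). The members of this class with the smallest differences were Klf4 at -0.21 and Fosl2 at -0.10. Summed over the list, the level was 2628 to 12730 CPM in WT+ZnO NPs, 1108 to 2582 CPM in KO+ZnO NPs and 875 to 2473 CPM in the 6 libraries without ZnO NPs. The WT+ZnO NPs libraries thus stood above all 9 others, and the KO+ZnO NPs libraries reached little beyond the range without ZnO NPs. The calls for Fosb, Egr1 and Zfp36 held in 0 of the 12 fits that each left out 1 library, that for Atf3 in 1 and that for Fos in 4, with every log2 difference below 0. Without KO+ZnO NPs replicate 2 the value was -5.43 for Fos and -9.39 for Fosb, and without WT+ZnO NPs replicate 2 it was -6.56 for Fosb and -1.69 for Zfp36.

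Of the 19 genes tested that glucocorticoid hormones switch on, 4 were called, all higher (21.1%, against 2.13% of all genes tested), and the median log2 fold change was 0.75. Fkbp5, a co-chaperone that dampens the glucocorticoid receptor (GRCm38 chr17:28399094-28517527), was at 342, 345 and 343 CPM in KO+ZnO NPs and at 74.8, 94.6 and 73.9 CPM in WT+ZnO NPs. All 3 knockout treated libraries lay above the other 9, of which the highest reached 175 CPM. The log2 fold change was 2.08 (SE 0.29, edgeR adjusted p = 0.0205), or 4.24-fold. Pdk4, the kinase that turns off pyruvate dehydrogenase and spares glucose, was at 242, 332 and 377 CPM against 61.4, 50.5 and 49.4 CPM (log2 fold change 2.56, SE 0.31, edgeR adjusted p = 0.0156). Ddit4, a stress-induced inhibitor of mTORC1, was at 350, 606 and 196 CPM against 95.9, 94.4 and 95.3 CPM (log2 fold change 2.01, SE 0.33, edgeR adjusted p = 0.0274). These 3 genes had the knockout treated libraries outside all others.

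Sult1a1, a phenol sulfotransferase that conjugates hormones and drugs, had the smallest adjusted p of all genes tested. It was at 57.4, 44.2 and 62.8 CPM in KO+ZnO NPs and at 16.3, 19.2 and 16.4 CPM in WT+ZnO NPs, a log2 fold change of 1.66 (SE 0.14, edgeR adjusted p = 0.00286). Its level without ZnO NPs was 47.4 to 52.9 CPM, so the WT+ZnO NPs libraries were the ones that stood apart. An exon of Sult1a1 overlaps an exon of Sgf29 on the other strand, and the strand setting of the counting is not given in the sources used here, so reads from the shared bases cannot be told apart. It was called in all 12 fits that each left out 1 library. In the same fits Fkbp5 and Pdk4 were called 11 times and Ddit4 10 times, and without WT+ZnO NPs replicate 3 Sult1a1 was the only gene called at all. Other members had values short of the threshold, such as Angptl4 with a log2 difference of 1.5 (edgeR adjusted p = 0.0622), Tsc22d3 with 1.24 (0.0711) and Klf9 with 0.83 (0.0847), while Dusp1, which is also an immediate early gene, had -1.94 (0.0977) and Gadd45b had -0.50 (0.163). Sgk1, Lcn2 and Errfi1 had log2 differences of 0.05, 0.09 and 0.16.

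**Figure D2:**
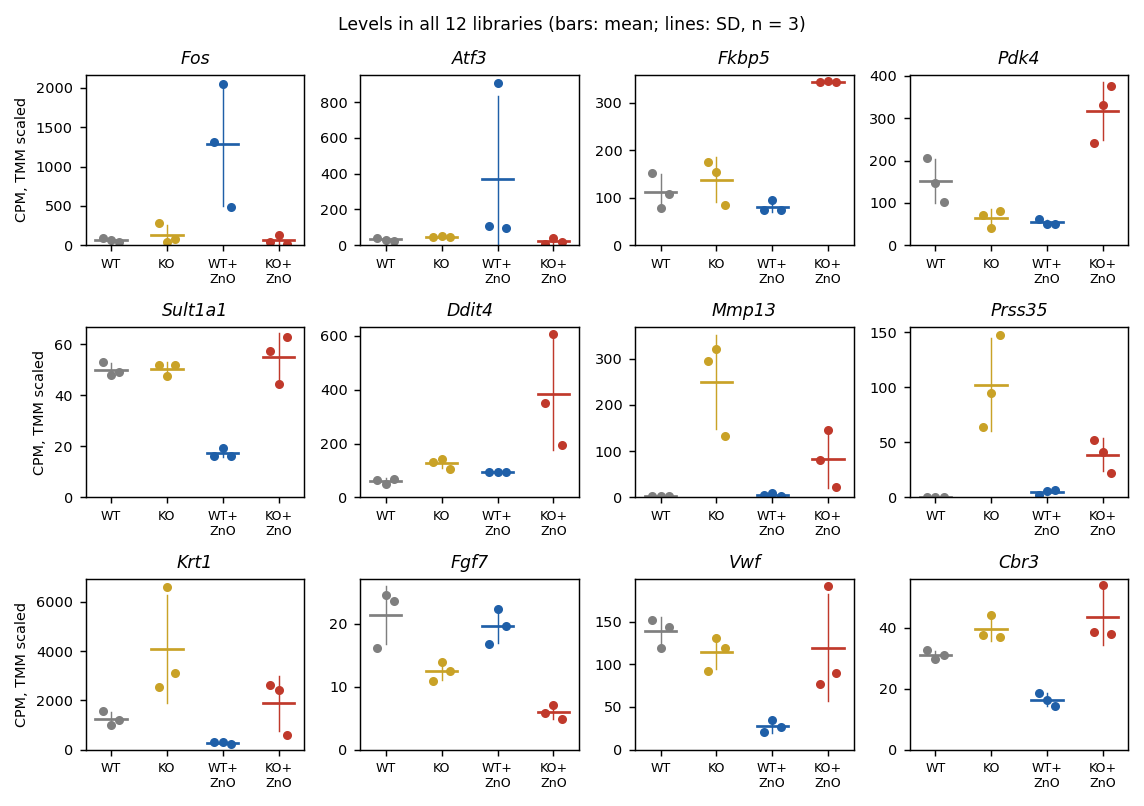
CPM of 12 genes in all 12 libraries, by group. Points are libraries, horizontal bars are means and vertical lines are SDs (n = 3, cut at 0). Fkbp5, Pdk4 and Ddit4 were highest in KO+ZnO NPs, Fgf7 was lowest there, and for Fos, Sult1a1, Krt1, Vwf and Cbr3 the WT+ZnO NPs libraries stood apart from the other 9.

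Trim63, the muscle ubiquitin ligase MuRF1, and Thbs1, the matrix glycoprotein thrombospondin 1, were named for this comparison by the study and did not pass the adjusted threshold used here. The study's heatmap of these genes accepted either an unadjusted or an adjusted p below 0.05. The unadjusted p of edgeR was 0.0122 for Trim63 and 0.00498 for Thbs1. Trim63 was at 49.6, 159 and 62.4 CPM in KO+ZnO NPs and at 43.4, 31.4 and 27.3 CPM in WT+ZnO NPs, so the groups did not overlap, with a log2 difference of 1.41 (SE 0.47, edgeR adjusted p = 0.101). Without KO+ZnO NPs replicate 2, its highest library, the log2 difference was 0.70, and with only the KO+ZnO NPs library that held Y-linked transcripts it was 0.56. Summed markers of skeletal muscle, where Trim63 is mainly expressed, ran from 5215 to 28860 CPM in KO+ZnO NPs and from 10450 to 37910 CPM in WT+ZnO NPs, and 0 of 23 were called. Thbs1 was at 104, 130 and 35.2 CPM in KO+ZnO NPs and at 442, 551 and 133 CPM in WT+ZnO NPs, so the groups did not overlap either. Its log2 difference was -2.06 (SE 0.59, edgeR adjusted p = 0.0718). DESeq2's Wald test on all 12 libraries called both (adjusted p = 0.0293 for Trim63 and 0.00415 for Thbs1), and on the 6 libraries compared it called Thbs1 (0.018) and not Trim63 (0.0586).

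The list of muscle atrophy genes held 13 tested members, of which 3 were called higher (23.1%, against 2.13% of all genes tested), with a median log2 fold change of 0.54. Eif4ebp1, the repressor of cap-dependent translation under mTORC1, was at 115, 107 and 105 CPM in KO+ZnO NPs and at 60.0, 65.3 and 63.8 CPM in WT+ZnO NPs (log2 fold change 0.79, SE 0.11, edgeR adjusted p = 0.0205). Bnip3, a mitophagy receptor induced by low oxygen, was at 127, 78.0 and 103 CPM against 57.7, 52.1 and 37.0 CPM (log2 fold change 1.07, SE 0.19, edgeR adjusted p = 0.0307), and 47.2% of its 50-base stretches also occur in transcripts of other genes. Sesn1, a p53-induced inhibitor of mTORC1, was at 114, 109 and 79.1 CPM against 66.6, 53.9 and 53.9 CPM (log2 fold change 0.79, SE 0.17, edgeR adjusted p = 0.0377). These called members act in nutrient and stress signalling in many tissues, and the muscle ubiquitin ligase Fbxo32 in the same list had a log2 difference of 0.18.

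Matrix metalloproteinases, the secreted enzymes that cut collagen, elastin and basement membrane, had 3 of 16 members called, all higher (18.8%, against 2.13% of all genes tested), and a median log2 fold change of 0.69. Mmp9, a gelatinase of keratinocytes, neutrophils and macrophages, was at 353, 372 and 120 CPM in KO+ZnO NPs and at 7.04, 31.1 and 5.93 CPM in WT+ZnO NPs (log2 fold change 4.26, SE 0.72, edgeR adjusted p = 0.029). Mmp13, the main interstitial collagenase of mice, was at 80.1, 147 and 22.1 CPM against 5.4, 10.5 and 2.93 CPM (log2 fold change 3.73, SE 0.68, edgeR adjusted p = 0.0307). Mmp12, the macrophage elastase, was at 67.6, 312 and 81.4 CPM against 17.4, 29.5 and 15.4 CPM (log2 fold change 2.89, SE 0.67, edgeR adjusted p = 0.0474). In all 3 genes the lowest KO+ZnO NPs library lay above the highest WT+ZnO NPs library, and the KO libraries without ZnO NPs were at 415 to 899 CPM for Mmp9, above all treated libraries, at 297 to 1388 CPM for Mmp12 and at 134 to 321 CPM for Mmp13. When each library was left out in turn, Mmp9 was called in 10 of the 12 fits, Mmp13 in 5 and Mmp12 in 2. Without KO+ZnO NPs replicate 2 the log2 fold change was 1.83 for Mmp12 and 3.02 for Mmp13, and without WT+ZnO NPs replicate 2 it was 5.44 for Mmp9 and 4.32 for Mmp13. With the Y-linked covariate it was 1.57 for Mmp12. Mmp10, a stromelysin, had a log2 difference of 3.87 and missed the threshold (edgeR adjusted p = 0.0521).

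The classical promoter element of this family is the AP-1 site TGACTCA, which Fos and Jun proteins bind, and it is shown for Mmp13 and Mmp12 because Fos and Fosb fell in the same comparison. The promoter of Mmp9 was not analysed here. Mmp13 (chr9:7272264-7272513, plus strand) and the second of the 2 RefSeq starts of Mmp12 (chr9:7347124-7347373, plus strand) are given as the 250 bases before the start in GRCm38.p6, 5′ to 3′. Capitals mark TGACTCA or its reverse complement TGAGTCA. The window before the other Mmp12 start held no such match and is not shown.
Mmp13: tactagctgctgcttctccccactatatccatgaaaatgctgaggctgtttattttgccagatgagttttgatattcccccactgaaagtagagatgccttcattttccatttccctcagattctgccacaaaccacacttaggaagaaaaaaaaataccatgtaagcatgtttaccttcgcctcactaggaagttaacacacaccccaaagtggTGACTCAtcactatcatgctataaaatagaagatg
Mmp12: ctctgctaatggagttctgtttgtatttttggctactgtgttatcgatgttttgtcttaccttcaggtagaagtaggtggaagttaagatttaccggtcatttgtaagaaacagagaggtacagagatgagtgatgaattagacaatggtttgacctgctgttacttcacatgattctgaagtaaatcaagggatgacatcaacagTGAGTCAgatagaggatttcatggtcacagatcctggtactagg
The site began 35 bases before the Mmp13 start and 44 before this Mmp12 start. It stood in the window of 9.03% of the called higher genes, 2.47% of the called lower genes and 4.63% of the tested genes with a window.

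Basement membrane genes, which tie the epidermis to the dermis, had a median log2 fold change of 0.43 over 17 members tested. Col7a1, the anchoring fibril collagen, was called higher, at 405, 452 and 205 CPM in KO+ZnO NPs and 108, 85.9 and 70.5 CPM in WT+ZnO NPs (log2 fold change 2.01, SE 0.34, edgeR adjusted p = 0.029). The KO libraries without ZnO NPs were at 512 to 610 CPM for Col7a1 and the WT libraries at 18.0 to 39.7 CPM. Prss35, a secreted protein related to serine proteases, followed the same order, at 52.0, 41.6 and 22.5 CPM in KO+ZnO NPs, 2.08, 5.71 and 7.04 CPM in WT+ZnO NPs, 64.1 to 148 CPM in KO and 0.0702 to 0.630 CPM in WT. Its log2 fold change between the treated groups was 2.97 (SE 0.57, edgeR adjusted p = 0.0343). The fibroblast and collagen list had 0 of 19 members called, although 17 had a difference above 0, 9 had an unadjusted p below 0.05 (24.8% of all genes tested did) and the median log2 fold change was 0.81. Col1a1, a chain of type I collagen, was 1 of the 2 members below 0, at 2765 to 13290 CPM in WT+ZnO NPs and 5036 to 6748 CPM in KO+ZnO NPs.

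Vessel genes had 4 of 16 members called, all higher (25.0%, against 2.13% of all genes tested), with a median log2 fold change of 0.94. Vwf, the clotting glycoprotein stored by endothelial cells, was at 77.3, 191 and 89.3 CPM in KO+ZnO NPs and at 20.7, 35.3 and 26.3 CPM in WT+ZnO NPs (log2 fold change 2.12, SE 0.33, edgeR adjusted p = 0.0274). Pecam1, the endothelial junction protein CD31, was at 139, 323 and 106 CPM against 38.1, 87.3 and 51.5 CPM (log2 fold change 1.68, SE 0.40, edgeR adjusted p = 0.049). The WT+ZnO NPs libraries were below all 9 others for both genes. Thbs2, the relative of Thbs1 that is made mainly by fibroblasts, rose by a log2 fold change of 1.33 (SE 0.28, edgeR adjusted p = 0.0396), and Eng, an endothelial co-receptor of TGF-beta, by 0.95 (SE 0.21, edgeR adjusted p = 0.0445). Vwf was called in 11 of the 12 fits that each left out 1 library, Pecam1 and Thbs2 in 2 and Eng in 1. The log2 fold change of Pecam1 was 1.04 without KO+ZnO NPs replicate 2. Kdr, the main VEGF receptor, had a log2 difference of 0.41, and Vegfa one of -0.28.

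Some of the stefins, small cysteine protease inhibitors encoded by a cluster on chromosome 16, were among the largest rises. Stfa3 (chr16:36450537-36455392) was at 511, 1313 and 255 CPM in KO+ZnO NPs and at 38.0, 54.1 and 10.4 CPM in WT+ZnO NPs (log2 fold change 4.34, SE 0.81, edgeR adjusted p = 0.0335). Its neighbour BC100530 was at 695, 1747 and 170 CPM against 50.7, 71.0 and 7.67 CPM (log2 fold change 4.34, SE 0.91, edgeR adjusted p = 0.0375). BC117090 was at 40.6, 151 and 13.2 CPM against 4.36, 6.21 and 0.870 CPM (log2 fold change 4.16, SE 0.87, edgeR adjusted p = 0.0377), and Stfa1 at 3.40, 10.6 and 0.436 CPM against 0.240, 0.366 and 0.0396 CPM (log2 fold change 4.47, SE 1.00, edgeR adjusted p = 0.0439). The 4 genes kept the same order of libraries, with replicate 2 highest and replicate 3 lowest in both groups. BC100530 shares 36.2% of its 50-base stretches with other genes, BC117090 33.7% and Stfa1 22.5%, so reads from those stretches cannot be assigned to 1 gene, while Stfa3 shares 0%. Without KO+ZnO NPs replicate 2 the log2 fold changes were 3.47 for Stfa3, 3.32 for BC100530, 2.81 for BC117090 and 3.14 for Stfa1, and in the 12 fits that each left out 1 library Stfa3 was called 4 times and each of the others once. Of the other stefins in the list, Stfa2 had a log2 difference of 3.04 (edgeR adjusted p = 0.105) and Stfa2l1 one of -0.40 (0.885). Stefins are made by neutrophils and by keratinocytes. Of the 16 neutrophil-linked genes tested, Stfa3, BC100530 and Stfa1 were the 3 called, all higher (18.8%, against 2.13% of all genes tested). The genes of neutrophil granules and cytosol in the list were not called and had differences in both directions, with log2 values of 3.21 for Elane, 2.31 for Ngp, 0.78 for S100a9, 0.59 for S100a8, 0.33 for Camp, 0.09 for Lcn2 and -3.40 for Mpo.

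Immune cell lists had positive medians with few calls. Over all genes tested, 2.13% were called higher and 1.16% lower. All 18 macrophage genes had a level above that of WT+ZnO NPs, with a median log2 fold change of 1.18, and 1 was called, the immunoglobulin receptor gene Fcgr3 at 29.1, 44.7 and 24.3 CPM against 8.40, 16.5 and 11.3 CPM (log2 fold change 1.44, SE 0.34, edgeR adjusted p = 0.0491). The summed list stood at 630 to 1461 CPM in KO+ZnO NPs, 390 to 792 CPM in WT+ZnO NPs and 3067 to 7341 CPM in the libraries without ZnO NPs. The treated groups overlapped in this sum and both lay below all libraries without ZnO NPs. Among antigen-presenting cell genes, 2 of 17 were called (11.8%, against 2.13% of all genes tested called higher) and all 17 had positive differences. Cd40, a co-stimulatory receptor, was at 4.10, 4.08 and 3.83 CPM against 1.84, 1.10 and 1.66 CPM (log2 fold change 1.38, SE 0.23, edgeR adjusted p = 0.029), and Cd86, a ligand of CD28, at 9.95, 14.1 and 6.05 CPM against 2.52, 4.98 and 2.77 CPM (log2 fold change 1.55, SE 0.34, edgeR adjusted p = 0.0416).

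Mast cell genes had the highest median of the immune lists, 2.17, with 1 of 12 called (8.33%, against 3.28% of all genes tested). That gene was Fcer1a, the IgE-binding chain of the high-affinity receptor, at 3.93, 1.36 and 7.58 CPM in KO+ZnO NPs and 0.240, 0.914 and 0.435 CPM in WT+ZnO NPs (log2 fold change 3.03, SE 0.71, edgeR adjusted p = 0.0481). It was 2.32 without KO+ZnO NPs replicate 3 and 3.65 without WT+ZnO NPs replicate 2. The summed list was 213, 135 and 907 CPM in KO+ZnO NPs and 75.2, 176 and 140 CPM in WT+ZnO NPs, so replicate 3 was the highest and the groups overlapped. Of 20 T cell genes, the receptor constant segments Trbc1 and Trbc2 were called higher, by log2 fold changes of 2.18 and 1.28 (edgeR adjusted p = 0.0374 and 0.0441), and Ccr10, a skin-homing chemokine receptor, was called lower. Trbc1 and Trbc2 share 40.5% and 44% of their 50-base stretches with other genes, so reads from those stretches cannot be assigned to 1 gene. Ccr10 was at 0.742, 0.605 and 0.566 CPM in KO+ZnO NPs and 1.52, 2.01 and 1.46 CPM in WT+ZnO NPs, and it was the only one of 34 chemokine genes called (log2 fold change -1.38, SE 0.26, edgeR adjusted p = 0.0343). Il1f9, which encodes the epithelial alarmin IL-36 gamma, was the only one of 22 cytokine genes called, at 38.1, 15.7 and 5.4 CPM against 2.04, 4.66 and 1.94 CPM (log2 fold change 2.78, SE 0.66, edgeR adjusted p = 0.049). Without KO+ZnO NPs replicate 1 its log2 fold change was 1.88, and it was called in 1 of the 12 fits that each left out 1 library.

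**Figure D3:**
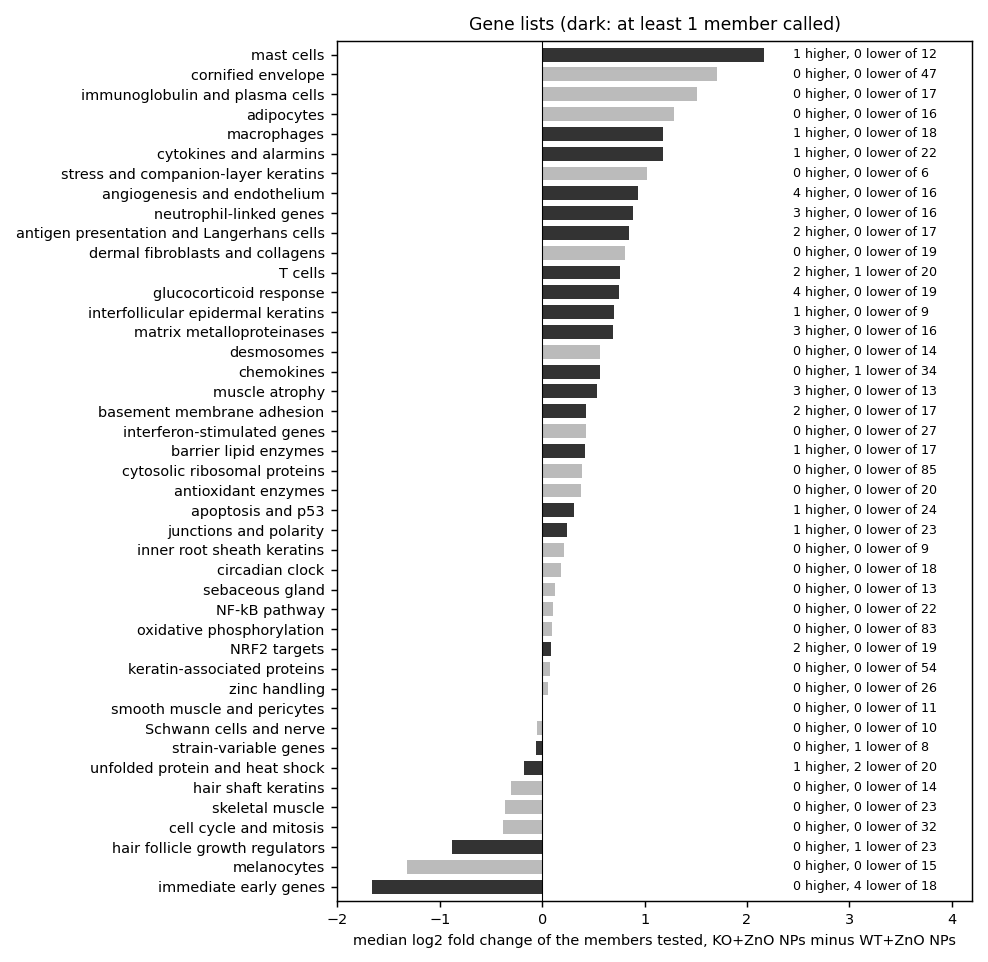
Median log2 fold change of the members tested in each gene list, with the number of members called at right. Dark bars are lists with at least 1 called member. Over all genes tested, 3.28% were called. Mast cell genes had a median of 2.17 (1 of 12 called), and immediate early genes the lowest (-1.66, 4 of 18 called).

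Among the epidermal keratins, Krt1, the suprabasal keratin of differentiating keratinocytes, was the only one of 9 called (11.1%, against 3.28% of all genes tested). It was at 2639, 2420 and 585 CPM in KO+ZnO NPs and at 306, 324 and 236 CPM in WT+ZnO NPs (log2 fold change 2.71, SE 0.54, edgeR adjusted p = 0.0362). The WT+ZnO NPs libraries lay below all others, which were at 585 to 6613 CPM. Its partner Krt10 had a log2 difference of 2.05 just outside the threshold (edgeR adjusted p = 0.0514), and the basal keratins Krt5 and Krt14 had differences of 0.26 and 0.84. The cornified envelope genes, which build the dead outer layer, had a median of 1.71, with 45 of 47 members above 0, and 0 were called. Lor, the loricrin gene of that layer, shows the spread behind this, at 1924, 123 and 347 CPM in KO+ZnO NPs and 139, 420 and 190 CPM in WT+ZnO NPs. Abhd5, the lipase co-activator needed for barrier ceramides, was called higher at 121, 69.4 and 88.4 CPM against 59.1, 53.1 and 44.7 CPM (log2 fold change 0.83, SE 0.19, edgeR adjusted p = 0.0485), 1 of 17 barrier lipid genes.

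Of 23 junction and polarity genes, 1 was called (4.35%, against 3.28% of all genes tested). This was Rhoa, a small GTPase that builds stress fibres, at 278, 381 and 277 CPM in KO+ZnO NPs and 189, 217 and 200 CPM in WT+ZnO NPs (log2 fold change 0.63, SE 0.14, edgeR adjusted p = 0.0455). An exon of Rhoa overlaps exons of Tcta and Gm37401. Desmosome genes had 0 of 14 called and a median log2 fold change of 0.56, with Perp at a difference of 0.75 (edgeR adjusted p = 0.189) and Dsp at 0.59 (0.259).

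Genes that steer hair follicle growth had lower levels in KO+ZnO NPs for 22 of 23 members, with a median log2 fold change of -0.88 and 1 call (4.35%, against 3.28% of all genes tested). Fgf7, the keratinocyte growth factor made by dermal cells, was at 5.85, 7.06 and 4.88 CPM in KO+ZnO NPs and at 16.8, 22.3 and 19.7 CPM in WT+ZnO NPs (log2 fold change -1.73, SE 0.21, edgeR adjusted p = 0.0156). All 3 knockout treated libraries were below the other 9, which reached down to 11 CPM in KO. Fgf7 was called in 11 of the 12 fits that each left out 1 library, with log2 values of -1.88 to -1.62. Lgr5, a follicle stem cell receptor, had a log2 difference of -1.06 just outside the threshold (edgeR adjusted p = 0.0503). Hoxb4, a homeobox factor, was called lower at 11.9, 9.37 and 10.2 CPM against 25.7, 22.3 and 30.9 CPM (log2 fold change -1.33, SE 0.21, edgeR adjusted p = 0.0274).

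The structural genes of growing hair varied widely between libraries of 1 group. Inner root sheath keratins summed to 9013, 6713 and 223 CPM in KO+ZnO NPs and to 832, 3565 and 5183 CPM in WT+ZnO NPs, and keratin-associated proteins to 2082, 29 and 8.14 CPM against 294, 1363 and 591 CPM. None of 9 inner root sheath keratins, 14 hair shaft keratins or 54 keratin-associated proteins was called. In the libraries without ZnO NPs the inner root sheath sum was 4.56 to 8.20 CPM in WT and 22.8 to 12590 CPM in KO. Melanocyte genes, whose activity follows hair growth, had levels below those of WT+ZnO NPs for all 15 members, with a median log2 fold change of -1.32, and 0 were called, although 9 had an unadjusted p below 0.05 (24.8% of all genes tested did). Pmel, the melanosome fibre protein, was at 85.3, 105 and 50.4 CPM in KO+ZnO NPs and 106, 330 and 268 CPM in WT+ZnO NPs, and Dct, a melanin enzyme, at 145, 209 and 132 CPM against 137, 423 and 266 CPM. Mlana came nearest to a call, with a log2 difference of -1.89 (edgeR adjusted p = 0.0542). Summed melanocyte transcripts were 430 to 652 CPM in KO+ZnO NPs, 549 to 1665 CPM in WT+ZnO NPs and 165 to 393 CPM without ZnO NPs.

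Stress pathways gave single genes. Of 19 targets of NRF2, the factor that answers oxidative and electrophile stress, 2 were called higher (10.5%, against 2.13% of all genes tested). Their median was 0.09 and fell to -0.06 when no scaling factor was used. Cbr3, a carbonyl reductase, was at 38.6, 53.9 and 37.7 CPM in KO+ZnO NPs and at 18.6, 16.2 and 14.4 CPM in WT+ZnO NPs (log2 fold change 1.40, SE 0.16, edgeR adjusted p = 0.0155). Akr1b8, an aldose reductase relative, was at 30.2, 33.6 and 21.5 CPM against 12.2, 11.4 and 9.49 CPM (log2 fold change 1.36, SE 0.26, edgeR adjusted p = 0.0343). Among the members that missed the threshold, the log2 differences were 0.94 for Hmox1, 0.66 for Nqo1 and 0.50 for Srxn1, and -0.90 for Slc7a11, -0.51 for Gclc and -0.19 for Gclm. Of the 19 targets, 8 had a difference below 0. Among 20 chaperone and unfolded protein genes, Atf3 was called lower and Hsph1, the large heat shock chaperone, was also lower at 31.6, 40.8 and 39.3 CPM against 82.7, 70.9 and 79.6 CPM (log2 fold change -1.06, SE 0.16, edgeR adjusted p = 0.0221). Asns, asparagine synthetase, was higher at 48.7, 47.5 and 44.8 CPM against 22, 33.4 and 28.1 CPM (log2 fold change 0.76, SE 0.16, edgeR adjusted p = 0.0396). Casp8, the caspase that starts death receptor apoptosis, was 1 of 24 apoptosis genes called, at 47.0, 43.6 and 46.7 CPM against 32.0, 34.7 and 32.2 CPM (log2 fold change 0.47, SE 0.11, edgeR adjusted p = 0.0453).

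Transcripts of zinc handling were not among the calls. Both groups received zinc oxide, so a response of equal size in both would not appear in this comparison. None of 26 zinc transporter and metallothionein genes was called. Mt1, the zinc-induced metallothionein, was at 779, 1394 and 361 CPM in KO+ZnO NPs and 354, 808 and 728 CPM in WT+ZnO NPs, against 125 to 280 CPM in all 6 libraries without ZnO NPs. The 2 treated groups overlapped (log2 difference 0.42, SE 0.46, edgeR adjusted p = 0.604). Antioxidant enzymes (0 of 20 called), NF-kB pathway genes (0 of 22), interferon-stimulated genes (0 of 27), cell cycle genes (0 of 32), circadian clock genes (0 of 18) and oxidative phosphorylation genes (0 of 83) had no call either. Of 85 cytosolic ribosomal protein genes 0 were called, 47 had all KO+ZnO NPs libraries above all WT+ZnO NPs libraries and 1 had them all below, where 23.7% of all genes tested had groups that did not overlap, and the list's median log2 fold change was 0.39. Their sum was 75470, 111500 and 71770 CPM in KO+ZnO NPs and 60180, 65870 and 69360 CPM in WT+ZnO NPs.

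Other genes with large changes belong to no such list. Defb8, a beta-defensin, had 0 counts in all 3 KO+ZnO NPs libraries and in all 6 libraries without ZnO NPs, but stood at 27.6, 3.84 and 53.2 CPM in WT+ZnO NPs. Set against a floor of 3 counts per library (0.137 CPM), its level was at least 206-fold lower in KO+ZnO NPs (edgeR adjusted p = 0.0496). This bound uses the mean of 3 unequal WT+ZnO NPs libraries, and Defb8 was called in 2 of the 12 fits that each left out 1 library. Rarres1, a retinoid-induced membrane protein, was at 195, 110 and 213 CPM against 813, 291 and 505 CPM, with 34.5 to 66.3 CPM without ZnO NPs (log2 fold change -1.64, SE 0.38, edgeR adjusted p = 0.0468). Selenbp1, a methanethiol oxidase that shares 46.3% of its 50-base stretches with other genes, was at 49.1, 16.1 and 41.8 CPM against 84.7, 167 and 195 CPM (log2 fold change -2.06, SE 0.42, edgeR adjusted p = 0.0368). Zfhx2, a zinc finger homeobox gene with an antisense partner of unknown share in the reads, was at 6.11, 3.93 and 6.45 CPM against 17.0, 12.6 and 19.2 CPM (log2 fold change -1.57, SE 0.24, edgeR adjusted p = 0.0263). The mitochondrial gene mt-Nd3 was lower by a log2 fold change of -1.46 (SE 0.26, edgeR adjusted p = 0.0304), but 98% of its 50-base stretches are shared with other annotated genes.

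Akr1c18, the enzyme that inactivates progesterone, was at 22.3, 19.3 and 74.8 CPM in KO+ZnO NPs and at 4.0, 3.75 and 4.47 CPM in WT+ZnO NPs (log2 fold change 3.25, SE 0.60, edgeR adjusted p = 0.0325). The log2 fold change was 2.34 without KO+ZnO NPs replicate 3, and the gene was called in 6 of the 12 fits that each left out 1 library. Without ZnO NPs its order was reversed, with 33.1 to 127 CPM in WT and 10.2 to 17.4 CPM in KO. Pla1a, a phosphatidylserine lipase, was at 25.0, 34.5 and 7.97 CPM against 2.72, 4.2 and 1.74 CPM (log2 fold change 2.96, SE 0.60, edgeR adjusted p = 0.0362). Teddm3 was at 30.2, 27.9 and 3.96 CPM against 1.40, 2.79 and 1.07 CPM (log2 fold change 3.57, SE 0.68, edgeR adjusted p = 0.0343) and shares 48.2% of its 50-base stretches with other genes. Nlrp1b, an inflammasome sensor whose alleles differ between mouse strains, was at 1.22, 0.756 and 1.61 CPM in KO+ZnO NPs and 5.48, 3.11 and 3.60 CPM in WT+ZnO NPs (log2 fold change -1.76, SE 0.35, edgeR adjusted p = 0.0362). It was the only one of 8 strain-variable genes called (12.5%, against 3.28% of all genes tested).

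Transcripts of lung epithelium differed between the groups, in a list put together after the values had been seen. The surfactant genes Sftpc, Sftpa1 and Sftpb were all called higher. Sftpc had 181, 85 and 175 counts in KO+ZnO NPs and 4, 15 and 7 counts in WT+ZnO NPs, with 58 to 248 counts in the libraries without ZnO NPs. The 7 lung genes in the table summed to 13.0, 7.45 and 10.8 CPM in KO+ZnO NPs, to 0.559, 0.822 and 0.474 CPM in WT+ZnO NPs and to 4.46 to 34.6 CPM without ZnO NPs. Surfactant proteins are products of lung epithelium. The 3 WT+ZnO NPs libraries had the least of these transcripts, and the part of whatever these libraries share in the other results was not tested.

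RNA-binding and splicing factor genes were counted in a list put together after the values had been seen. Of 110 tested, 12 were called lower and 1, Rbm7, higher (11.8% called, against 3.28% of all genes tested, in a list that the values themselves prompted), with a median log2 fold change of -0.20. Hnrnph1, a splicing repressor, had a log2 fold change of -0.78 (edgeR adjusted p = 0.0303), Clk2, a kinase of SR proteins, -0.69 (0.0307), Srsf6, an SR protein, -0.48 (0.0406), and Snrnp70, the core protein of the U1 particle, -0.50 (0.0455). Rbm5, a splicing regulator of apoptosis genes, was at 108, 60.9 and 115 CPM in KO+ZnO NPs and 178, 162 and 165 CPM in WT+ZnO NPs, with 101 to 117 CPM without ZnO NPs (log2 fold change -0.83, SE 0.20, edgeR adjusted p = 0.0486). The WT+ZnO NPs libraries were above all 9 others for Rbm5. The lower genes were also longer, with a median exon length of 4946 bases against 3546 for the higher genes and 3695 for all genes tested, and 82.6% of them were protein coding against 90.8% of the higher genes and 82.7% of all. Called genes lay on every chromosome but Y, from 2.3% of the tested genes on chromosome 18 to 5.51% on chromosome 14.

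The same genotype difference in the absence of ZnO NPs came from the other 6 libraries, so it shares no sample with the treated comparison. It called 1540 genes (8.18% of those tested). Of the 400 genes higher in KO+ZnO NPs, 184 had a positive difference without ZnO NPs, 41 were called in the same direction there and 42 in the opposite direction. Of the 218 lower genes, 56 had a negative difference, 3 were called lower and 14 higher. The test of the difference between the differences (the interaction) called 1633 of all genes tested (8.68%), among them 211 of the 400 higher and 149 of the 218 lower genes, a share that the choice of these genes by the treated comparison raises. The WT+ZnO NPs libraries held Y-linked transcripts and the WT libraries did not, so the interaction cannot separate the particles from the sex-linked transcripts. Mmp9, Mmp13, Mmp12, Prss35, Stfa3 and Col7a1 were called higher in the knockout both with and without ZnO NPs. Akr1c18, Pdk4, Sesn1 and Casp8 rose in the knockout with ZnO NPs and had log2 fold changes of -2.45, -1.24, -0.75 and -0.65 without (edgeR adjusted p = 0.0292, 0.0319, 0.0241 and 0.00705).

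**Figure D4:**
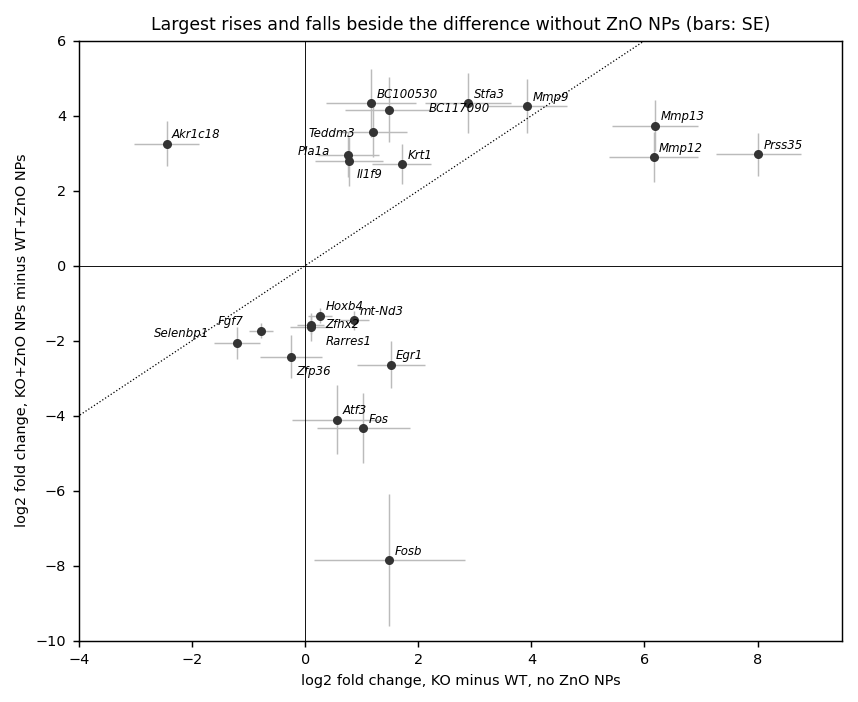
Log2 fold change between genotypes with ZnO NPs (vertical) against that without ZnO NPs (horizontal) for the genes that rose or fell most, with Defb8 left out because its counts without ZnO NPs were all 0. Bars are SEs and the dotted line marks equal differences. Prss35 and the metalloproteinases lie to the right, Akr1c18 lies left of 0 at 3.25, and Fos, Fosb and Atf3 lie far below the line.

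How many genes passed the threshold depended on the fit. DESeq2's Wald test on all 12 libraries called 2454 genes, 1423 higher and 1031 lower, and on the 6 libraries alone 891. edgeR on the 6 libraries alone called 0 genes, with 3067 at an unadjusted p below 0.05. With summed Y-linked transcripts as a covariate 1 gene was called, Sult1a1. Using KO+ZnO NPs replicate 1 alone, the knockout treated library with Y-linked transcripts like those of WT+ZnO NPs, 380 genes were called, of which 147 were among the 618, in a fit that assumes this lone library to vary like the other groups. Leaving out WT+ZnO NPs replicate 3 left 1 call and leaving out KO+ZnO NPs replicate 3 gave 1609. All called genes that were tested in a fit kept their direction there. The groups of nearly all of them did not overlap, so a kept direction was close to given in advance. The direction of the majority was less firm, since 64.7% of the calls were higher with TMM factors and 33.3% with library size only, under which the median of all genes was -0.11.

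**Figure D5:**
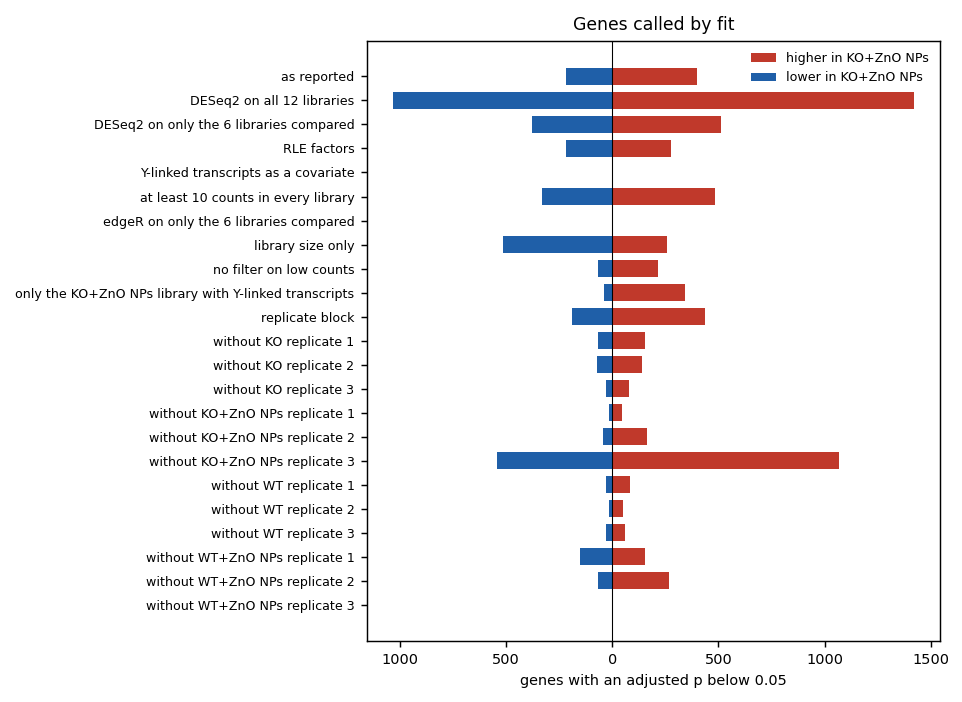
Number of genes with an adjusted p below 0.05 in each fit, higher in KO+ZnO NPs to the right and lower to the left. The fit as reported called 400 and 218, DESeq2 on all 12 libraries 1423 and 1031, and edgeR on the 6 libraries alone 0.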

How the data were processed

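The authors deposited raw counts of reads per gene, 1 column for each of the 12 libraries, and these counts were used as deposited. Per the labels, RNA was extracted with Trizol and libraries were made with TruSeq, and the submitters' processing notes name HISAT2 2.0.5 and mm10. The paper's methods name NEBNext, STAR and HTSeq instead, and this was not resolved. The annotation release and the strand setting are not given in the sources used here. Symbols, exons and coordinates were taken from GENCODE M21 (52489 of 52636 gene IDs matched), and promoter windows from RefSeq (GRCm38.p6).

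Counts were tested with edgeR 4.0.16 in R 4.3.3, using filterByExpr by group (18822 genes kept), TMM factors and the quasi-likelihood test on all 12 libraries in 1 fit with 1 coefficient per group, without covariates, with p-values adjusted after Benjamini and Hochberg across all tested genes. The common dispersion was 0.109. DESeq2 1.42.0, RLE factors, library size only, other filters, a Y-linked covariate, the 6 libraries alone, a replicate block and leaving out each library were alternatives. The scripts were tested on simulated data. Library totals limit the precision of low genes, and p-values measure the spread between mice. No libraries were duplicates, no columns were unused and 0 entries named no gene.

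Named genes were Cdc42, 3 genes the study discusses for this comparison (Fkbp5, Trim63, Thbs1), the 12 called genes that rose most and the 12 that fell most (mean level 10 CPM or more over the 6 libraries, non-overlapping groups, no Gm, Rik or pseudogene symbol), up to 4 called members per gene list or 2 abundant members of lists without a call, and Y-linked genes with Xist. Other list members are given as short values, chosen after their values were seen. The members and lists were chosen with earlier results of these data known. A called list member is not reported here.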

Additional observations from a re-analysis of the deposited data

Results flagged for a closer look

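For 34 of the named genes, edgeR's test of the interaction gave an adjusted p below 0.05, so the difference between the genotype labels with ZnO NPs differed from that without. WT and WT+ZnO NPs also differed in sex-linked transcripts, so these values cannot be assigned to the particles. Values here are the log2 difference with ZnO NPs minus the log2 difference without. Groups of 3 libraries were too small for a test of single outlying libraries. Each gene had to be named first, many of them for the treated difference itself, so the number flagged is not a share of anything.

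Among immediate early genes the values were Fos -5.36, Fosb -9.34, Atf3 -4.68 and Egr1 -4.14. Among glucocorticoid-induced and growth control genes they were Fkbp5 1.79, Pdk4 3.79, Sult1a1 1.65, Sesn1 1.54, Bnip3 1.39 and Eif4ebp1 1.07. The endothelial genes Vwf 2.40, Pecam1 2.27 and Eng 1.45 had a higher genotype difference with ZnO NPs than without, their mean level being lower in WT+ZnO NPs than in any other group. The matrix genes Mmp12 -3.28, Prss35 -5.04 and Col7a1 -2.24 had a smaller knockout difference with ZnO NPs than without. Keratin and pigment genes had values of Krt35 -10.93, Krt71 -12.39, Krt17 -1.94 and Pmel -3.96. Enzyme and apoptosis genes had values of Akr1b8 1.81, Akr1c18 5.70, Asns 0.88, Casp8 1.12 and Cbr3 1.06. The immune receptors had values of Cd40 1.76 and Ccr10 -1.75, and the surfactant genes of lung epithelium had values of Sftpa1 4.84 and Sftpc 2.99. The remaining genes were Hoxb4 -1.59, Zfhx2 -1.66, mt-Nd3 -2.33, Slc39a10 -2.54 and Rhoa 0.98.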

How the results depend on the processing

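The direction of every one of the 618 calls was kept in each fit that tested it, but the number past the threshold was not. A kept direction was close to given, since nearly all of these calls had non-overlapping groups. DESeq2 on all 12 libraries called 2454 genes (1423 higher, 1031 lower), and DESeq2 on the 6 libraries compared called 378 lower. A Y-linked covariate left 1 call (1 higher, 0 lower). edgeR on the 6 libraries called 0 (0 higher, 0 lower), with 3067 genes at an unadjusted p below 0.05. A fold of at least 2 kept 303 (223 higher, 80 lower), no filter on low counts gave 284 (217 and 67), and at least 10 counts in every library gave 332 lower. Library size only gave 258 higher and 516 lower, so 33.3% of calls were higher against 64.7%, with the median of all genes at -0.11. Using only the KO+ZnO NPs library with Y-linked transcripts, assumed to vary like the other groups, gave 380 (38 lower). RLE factors gave 494. Leaving out 1 library gave 1 to 1609 calls (1 to 1067 higher, 0 to 542 lower): 1 without WT+ZnO NPs replicate 3, 304 and 334 without replicates 1 and 2, 57, 211 and 1609 without KO+ZnO NPs replicates 1, 2 and 3, 222, 210 and 107 without KO replicates 1, 2 and 3, and 115, 63 and 88 without WT replicates 1, 2 and 3. The cause was not tested. With library size only the median turned negative for keratin-associated proteins, oxidative phosphorylation, zinc handling, NRF2 targets, the NF-kB pathway and smooth muscle and pericytes (0.00 to -0.16). Over all alternatives, the named genes kept their side of the threshold in 1780 cases, lost it in 647 and gained it in 16.

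Same-numbered treated libraries did not deviate together over all genes tested (r = -0.343, 0.00627 and -0.0461). With 3 libraries in each group these values cannot exclude a pairing by number. A fit with a replicate block called 626 genes (436 higher, 190 lower), of which 470 were among the 618, and it called Thbs1 (log2 -2.04, edgeR adjusted p = 0.0406).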
